A study of Homo sapiens with 8 samples.

Results

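Receptor tyrosine kinases other than MET were followed in 2 brain-metastatic breast cancer lines in which a doxycycline-inducible hairpin lowers MET. The list names 49 receptor genes, without MET, its relative MST1R, EGFR, ERBB2 and ERBB3. Of these, 48 had a probe set naming that gene alone, among 18239 genes in all, and EPHB2 was not analysed here. Where a gene had several probe sets, the one with the largest mean across all 8 arrays stands for it. A total of 29 receptor genes passed the filter on low values and were tested, and 19 did not pass it.

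The 4 groups were 231BrM with doxycycline, 231BrM without it, SKBrM3 with doxycycline and SKBrM3 without it, with 2 single-colour Affymetrix arrays each. Both lines carry the hairpin against MET in all groups, and treatment was 100 ng doxycycline, given in the labels with no volume, for 48 h. 231BrM is a derivative of the triple-negative line MDA-MB-231, and the name SKBrM3 is used for derivatives of the HER2-positive line SK-BR-3. There was no doxycycline group lacking the hairpin, so what the drug does by itself and what the hairpin does cannot be told apart.

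Receptor tyrosine kinases are single-pass membrane proteins. A ligand outside the cell brings receptor chains together, their intracellular kinase domains phosphorylate each other on tyrosines, and adaptors docked there start the RAS-ERK, PI3K and PLC-gamma pathways. Because many receptors use the same adaptors, one receptor can take over signalling when another is blocked, and such bypass is known for AXL, FGFR, IGF1R and ERBB receptors in tumours treated with kinase inhibitors. Some members, such as PTK7, RYK, EPHB6 and EPHA10, have impaired kinase domains and act through partners.

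Across genes, the correlation was 0.992 to 0.998 between replicates and 0.957 to 0.964 between the lines. Replicate 1 of 231BrM with doxycycline stood apart: its actin control probe sets differed by 1.24 log2 units between the 3' and 5' ends, where the other 7 arrays had 0.46 to 0.59. For GAPDH the difference was 0.33 on that array and -0.02 to 0.09 on the other 7. The arrays labelled SKBrM3 lacked several defining markers of SK-BR-3. ERBB2 had log2 values of 6.76 to 6.89 over the 231BrM arrays, and in SKBrM3 of 7.11 and 6.92 with doxycycline and 6.70 and 6.72 without it. Of 15 SK-BR-3 markers, 10 lay above background in untreated 231BrM and 10 in untreated SKBrM3, where GRB7, CDH1, ESRP1, GATA3 and TFAP2B did not. Between the untreated lines, 5 of 12 tested SK-BR-3 markers were higher and 3 lower in 231BrM, with log2 differences from -1.37 to 2.59. Of all genes tested, 19.8% were higher and 19.9% lower. FOXA1, a luminal transcription factor, went with the label, with 5.03 and 5.01 in untreated 231BrM, under background, and 6.39 and 6.38 in untreated SKBrM3, above it. MIEN1, a neighbour of ERBB2, was also lower in 231BrM, by a log2 difference of -0.73. The 5 higher markers went against the label. By background GATA3 went against it, above that level in untreated 231BrM and not in untreated SKBrM3. All 10 markers of MDA-MB-231 lay above background in both lines, and 4 of them were higher and 0 lower in untreated 231BrM. The mean level of the SK-BR-3 list was 6.66 to 6.68 on the untreated 231BrM arrays and 6.49 to 6.50 on the untreated SKBrM3 arrays. The name SKBrM3 is used below for the label only. Of 10 markers of fibroblasts, endothelium, leukocytes, astrocytes and smooth muscle, 2 or 3 lay above background in each group, namely PECAM1 and MYH11 in all and VWF in 3, and the other 7 did not in any.

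MET had log2 values of 5.85 and 5.35 in 231BrM with doxycycline, against 9.45 and 9.26 without it. In SKBrM3 they were 5.76 and 5.71 with doxycycline, against 9.25 and 9.20 without it. The groups were separated by more than 3 log2 units in both lines on this probe set, so the hairpin's target was low on every doxycycline array. With the mean of all MET probe sets the log2 difference was -1.88 in SKBrM3 and -1.79 on average over both lines. The log2 differences were -3.76 in 231BrM (standard error 0.148, limma adjusted p = 2.85e-05) and -3.50 in SKBrM3 (standard error 0.148, limma adjusted p = 1.32e-05).

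To describe which other receptors the lines carry, each group mean was set beside the 95th percentile of 334 olfactory receptor genes, which breast cells are taken not to express. This background level was 5.28 in 231BrM with doxycycline, 5.21 in 231BrM without it, 5.27 in SKBrM3 with doxycycline and 5.38 in SKBrM3 without it. It is not a measured chip background, and values of different probe sets do not rank receptors by amount. By this measure 17 of 48 receptors were above background in 231BrM with doxycycline, 17 without it, 17 in SKBrM3 with doxycycline and 16 without it. Of all 18239 genes, 51.9% to 54.0% were above it in the 4 groups. A total of 15 receptors were above it in all 4 groups, and 29 in none. The arrays measure bulk RNA, so fewer cells with a transcript and less of it per cell cannot be told apart.

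The 15 receptors seen in all 4 groups came from 8 families. In the TAM family, AXL, a GAS6 receptor typical of mesenchymal tumour cells, had log2 values of 11.64 and 11.47 in 231BrM with doxycycline and 11.60 and 11.43 without it, and of 11.56 and 11.60 in SKBrM3 with doxycycline and 11.38 and 11.29 without it. Its relative MERTK was above background in all groups too. Both collagen receptors were present. DDR1, the epithelial member, had values of 7.61 to 7.75 over all 8 arrays, and DDR2, the fibrillar collagen receptor, of 5.37 to 5.62. For DDR1 the arrays of both lines and both treatments overlapped. Of 13 ephrin receptors measured, EPHA2, EPHB3 and EPHB4 were above background in all groups. EPHA2 is an ephrin-A receptor of epithelial and basal-like tumour cells, and EPHB4 binds ephrin-B2. Among growth factor receptors, FGFR1, FGFR4 and IGF1R were in this set. The Wnt-binding receptors ROR1, RYK and PTK7 were also in it, as were FLT4, a receptor for VEGF-C and VEGF-D, and TIE1, an endothelial receptor that partners TEK. RYK had values of 8.73 to 8.88 over all arrays.

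Several of these calls are narrow. EPHB3 had values of 5.26 to 5.48 and DDR2 of 5.37 to 5.62, close to the level itself. TIE1 lay at 5.52 to 5.88 and FLT4 at 5.63 to 5.94, under the 99th percentile of the olfactory receptor genes, which was 6.02 to 6.22. Among the others, FGFR4 was under that percentile in 3 groups, ROR1 in both SKBrM3 groups and MERTK in untreated SKBrM3, while EPHB3 and DDR2 were under it throughout. The probe set used was the highest of 7 for FGFR4 and for TIE1, of 6 for FLT4 and of 3 for DDR2. TIE1 and FLT4 are known mainly from endothelium. Of its 3 markers on the list, PECAM1 was above background in all groups, VWF in all but untreated SKBrM3, and CDH5 in none, and their part in the TIE1 and FLT4 values was not tested.

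The 19 receptors that were not tested had values of 3.24 to 4.44 over all arrays. They include ERBB4, a neuregulin receptor, RET, the receptor of the GDNF family, ALK and ROS1, kinases known from gene fusions, KIT, FLT3 and TEK. Every one of these values lay under the background level of its group. A further 10 were tested but above background in no group, with values of 3.81 to 5.20: EPHA8, EPHB1, FGFR3, INSR, PDGFRA, PDGFRB, CSF1R, NTRK3, ROR2 and STYK1. None of the 5 members of the PDGF receptor family, to which KIT, FLT3 and CSF1R belong, was above background in any group, and likewise neither of the neurotrophin receptors NTRK2 and NTRK3. INSR, the insulin receptor, was below it too, with 4.73 to 5.09, on a probe set chosen from 5.

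**Figure D1:**
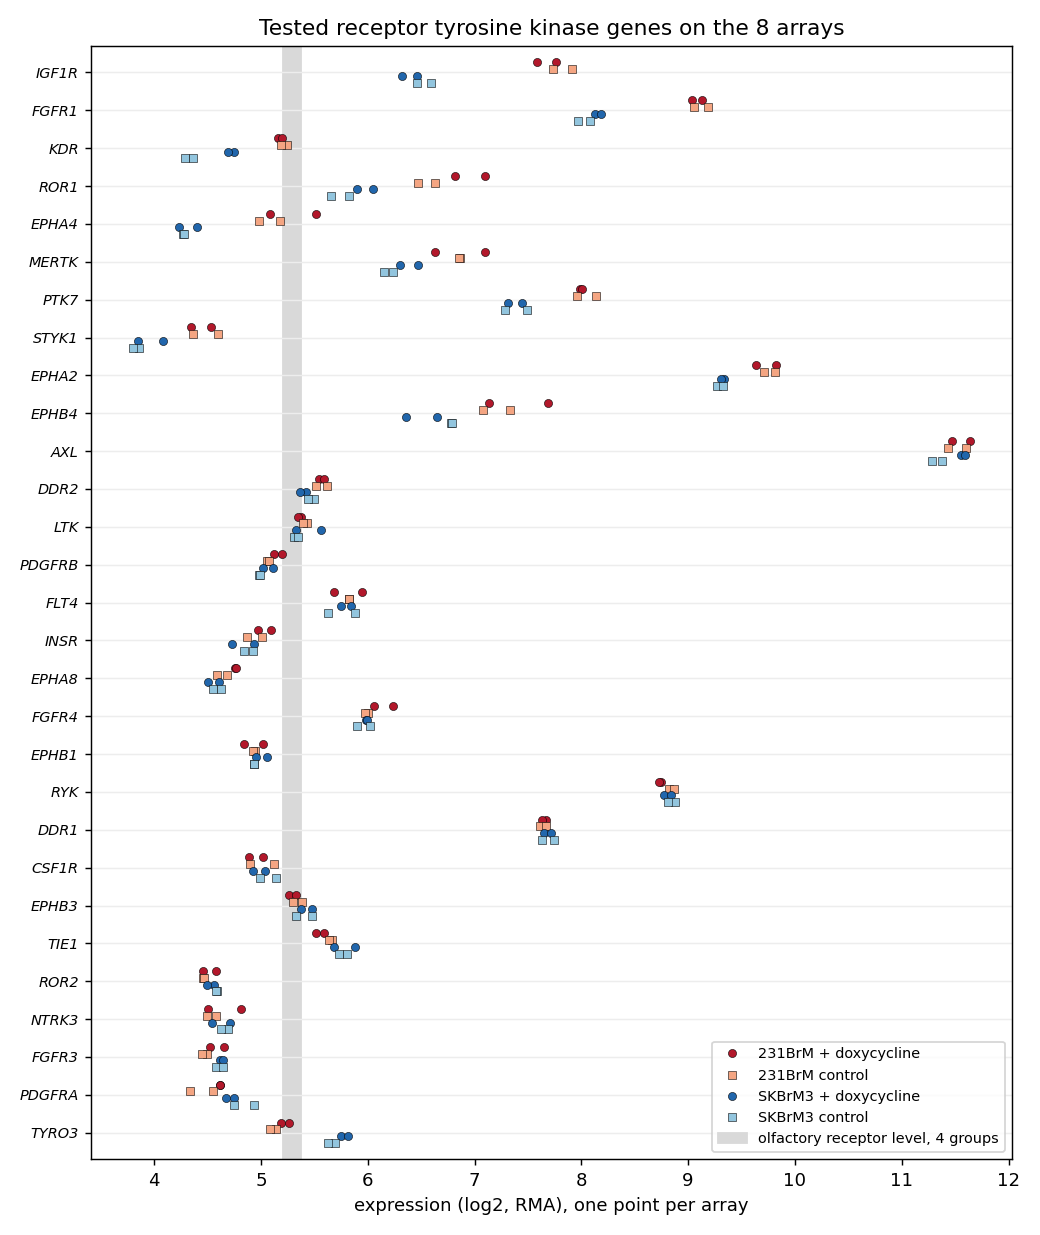
Log2 expression of the 29 tested receptor genes on the 8 arrays (x axis), 1 row per gene, ordered by the difference between the untreated lines; circles are doxycycline arrays, squares are control arrays, and the grey band spans the olfactory receptor level of the 4 groups, 5.21 to 5.38. IGF1R and FGFR1 at the top separate the lines on all arrays, while for DDR1 and RYK the lines overlap.

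Between the untreated lines, 231BrM had more IGF1R, FGFR1, ROR1, MERTK, PTK7 and EPHA2 transcript than SKBrM3, and less TYRO3. KDR was also called higher in 231BrM, but its mean there, 5.22, was next to the background level of 5.21. In untreated SKBrM3 KDR lay under background. A further 3 probe sets were called at low signal, EPHA4 and STYK1 higher and PDGFRA lower in 231BrM, all under background in both untreated lines. Of 29 receptors tested, 9 were thus higher and 2 lower in 231BrM at a limma adjusted p under 0.05, and 18 did not pass. EPHA4 and STYK1 had passed the filter through 231BrM alone, so they could only differ in that direction, and their differences are given as a description. Of all 13002 genes tested 39.7% were called, so the members' share of 37.9% is near the background. By direction the background was 19.8% higher and 19.9% lower. The median difference of the members was 0.07 log2 units, and that of all genes tested -0.05. Both arrays of 231BrM lay above both of SKBrM3 for 14 receptors (48.3%, against 33.2% of all genes) and below both for 6 (20.7%, against 43.6%). The 14 include EPHA4 and STYK1, as do the 9 called higher, so these shares are a description too.

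The stretch before the transcription start is shown for the receptor called with doxycycline (KDR), the receptor with the largest difference between the lines (IGF1R), and the receptor with the highest average difference under doxycycline (ROR1). Each is the 250 bases upstream of the start in the RefSeq table of build GRCh38.p14, read 5' to 3' on the gene's strand. Capitals mark the GC box GGGCGG on either strand, a site type bound by SP family factors.
KDR, chr4:55125596-55125845 (minus strand): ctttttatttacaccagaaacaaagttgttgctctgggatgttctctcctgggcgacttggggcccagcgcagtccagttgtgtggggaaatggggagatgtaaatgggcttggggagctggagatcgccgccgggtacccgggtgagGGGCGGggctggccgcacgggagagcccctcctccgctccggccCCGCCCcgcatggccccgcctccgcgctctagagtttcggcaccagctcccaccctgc
IGF1R, chr15:98648289-98648538 (plus strand): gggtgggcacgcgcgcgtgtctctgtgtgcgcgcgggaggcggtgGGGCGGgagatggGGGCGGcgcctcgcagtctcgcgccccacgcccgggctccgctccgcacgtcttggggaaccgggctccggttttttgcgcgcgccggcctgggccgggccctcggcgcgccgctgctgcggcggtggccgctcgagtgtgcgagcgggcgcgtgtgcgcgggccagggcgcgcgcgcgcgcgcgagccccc
ROR1, chr1:63773767-63774016 (plus strand): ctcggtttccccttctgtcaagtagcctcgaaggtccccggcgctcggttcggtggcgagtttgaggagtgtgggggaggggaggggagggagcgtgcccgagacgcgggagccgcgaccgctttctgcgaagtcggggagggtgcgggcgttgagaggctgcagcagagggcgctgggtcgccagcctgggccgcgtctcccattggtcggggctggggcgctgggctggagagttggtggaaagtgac
KDR and IGF1R each hold 2 GC boxes and ROR1 holds 0. The GC content is 65.2% for KDR, 81.2% for IGF1R and 69.2% for ROR1. The AP-1 letters TGANTCA, the E-box CACGTG and the TATA box TATAAA, searched on both strands, were found in none of the 3 windows. Of the measured receptors 43 matched the table, with 73 windows, and 61.6% of these windows held a GC box. Among all 35116 windows, from 27305 genes, the share was 42.6%. The median GC content was 64.4% in the receptor windows and 58% in all windows, and its part in the GC box shares was not tested. For receptors above background in all groups the share was 56% of 25 windows, and for those above it in none it was 64.3% of 42. No match says only that these letters are not in the window.

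IGF1R, the receptor of insulin-like growth factors, had log2 values of 7.91 and 7.73 in untreated 231BrM, against 6.59 and 6.46 in untreated SKBrM3. The lines did not overlap, and the difference was 1.30 (standard error 0.103, limma adjusted p = 3.22e-05), a fold of 2.46. The other 3 IGF1R probe sets that pass the filter gave differences of 0.33 to 0.69. FGFR1, which binds fibroblast growth factors and activates ERK through FRS2, had 9.18 and 9.06 in untreated 231BrM, against 7.97 and 8.08 in untreated SKBrM3. It was 2.14-fold higher in 231BrM (log2 difference 1.10, standard error 0.085, limma adjusted p = 2.83e-05), with 0.27 to 0.66 from its 5 other probe sets that pass the filter. For both genes the sign was the same on all probe sets above the filter, and the probe set used gave the largest difference.

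The Wnt receptors split. ROR1, a receptor of WNT5A, had 6.63 and 6.47 in untreated 231BrM, against 5.82 and 5.65 in untreated SKBrM3 (log2 difference 0.81, standard error 0.117, limma adjusted p = 0.000789). Its other probe set gave 1.00. PTK7, a kinase-impaired co-receptor of Wnt signalling, had 8.14 and 7.96 in untreated 231BrM, against 7.29 and 7.49 in untreated SKBrM3 (log2 difference 0.66, limma adjusted p = 0.00103). With the mean of its probe sets the PTK7 difference was 0.30 and did not pass (limma adjusted p = 0.0933). RYK, the third that is above background, differed by -0.00 with a 95% interval of -0.17 to 0.17, so a difference as large as that of ROR1 lies outside its interval.

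The TAM receptors also differed in direction. MERTK, which takes part in the uptake of dying cells, had 6.86 and 6.85 in untreated 231BrM, against 6.24 and 6.15 in untreated SKBrM3 (log2 difference 0.66, limma adjusted p = 0.00582). TYRO3, which binds PROS1 and GAS6, had 5.14 and 5.09 in untreated 231BrM, against 5.69 and 5.63 in untreated SKBrM3 (log2 difference -0.55, limma adjusted p = 0.000658). MERTK was therefore higher and TYRO3 lower in 231BrM, and TYRO3 was above background in SKBrM3 but not in untreated 231BrM. For AXL the difference was 0.18 with a 95% interval of -0.03 to 0.40 (limma adjusted p = 0.151), and its other probe set gave 0.12.

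Among ephrin receptors, EPHA2 had 9.81 and 9.71 in untreated 231BrM, against 9.27 and 9.33 in untreated SKBrM3 (log2 difference 0.46, limma adjusted p = 0.00337). EPHA4, which binds ephrins of both classes, had 5.18 and 4.99 in untreated 231BrM, against 4.27 and 4.28 in untreated SKBrM3, a log2 difference of 0.81. No SKBrM3 array exceeded the filter level of 4.41. Its other probe sets above the filter gave 0.09 and 0.23. All its values in the untreated lines were below background. EPHB4 did not pass, with a log2 difference of 0.42 and a 95% interval of 0.02 to 0.82 (limma adjusted p = 0.0917).

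The remaining called receptors were at low signal. KDR, the main VEGF receptor of endothelium, had 5.25 and 5.19 in untreated 231BrM, against 4.36 and 4.29 in untreated SKBrM3 (log2 difference 0.89, limma adjusted p = 4.47e-05). Only the 231BrM control mean, 5.22, exceeded its group's background level of 5.21. The other KDR probe set lay under the filter level on all arrays. STYK1, a receptor-like kinase, differed by 0.65, with 4.60 and 4.36 in untreated 231BrM and 3.86 and 3.81 in untreated SKBrM3, where no array exceeded the filter level. PDGFRA, a receptor of platelet-derived growth factors, differed by -0.40 (limma adjusted p = 0.0128), with every value under 5. LTK, a receptor of ALKAL ligands, was above background in untreated 231BrM and not in untreated SKBrM3, but its difference was 0.08 with a 95% interval of -0.13 to 0.29 (limma adjusted p = 0.507). PDGFRA lost its call without 231BrM control replicate 2 (-0.29) or without SKBrM3 control replicate 2 (-0.30).

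**Figure D2:**
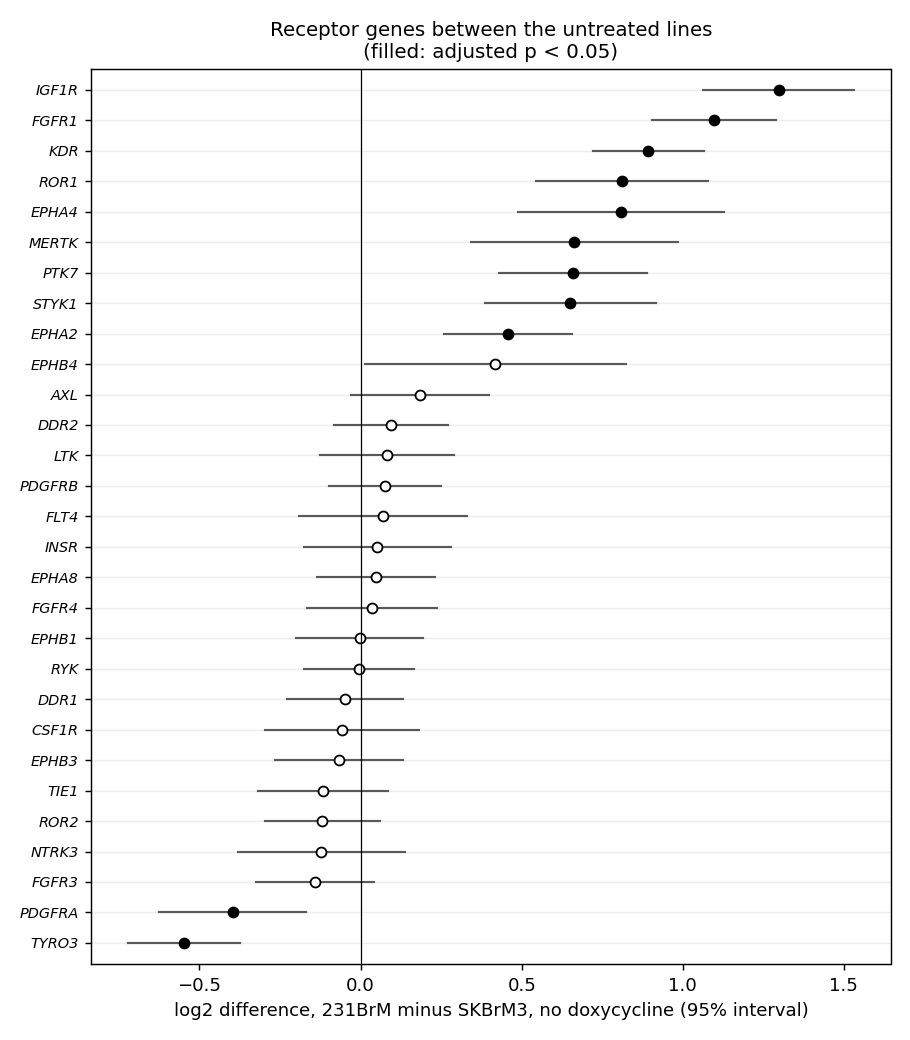
Log2 difference between the untreated lines (231BrM minus SKBrM3, x axis) for the 29 tested receptor genes, with 95% intervals from limma; filled points have an adjusted p under 0.05. The 9 receptors higher in 231BrM run from EPHA2 at 0.46 to IGF1R at 1.30, and TYRO3 and PDGFRA lie at -0.55 and -0.40.

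The doxycycline comparisons ask which other receptors differ when MET is low. In 231BrM, 0 of 29 receptors passed at a limma adjusted p under 0.05 in either direction, and 1, ROR1, had an unadjusted p under 0.05. Over all genes tested, 0.162% were called, none of them higher by limma, while 800 were higher at an unadjusted p under 0.05. In SKBrM3 KDR rose and no receptor fell, so 1 of 29 was called (3.45%), against 3.43% of all genes, of which 1.15% were higher and 2.28% lower. For the average of both lines 0 receptors passed by limma, with 3.04% of all genes called (0.969% higher and 2.07% lower) and 2 receptors higher at an unadjusted p under 0.05. The difference between the lines' effects was called for 0 receptors and for 0.0231% of all genes by limma, with 1 receptor, KDR, at an unadjusted p under 0.05.

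The intervals, each taken alone, bound how large a difference in signal could have gone unseen on the probe sets used. They do not cover the 19 receptors that were not tested. For the 10 tested receptors above background in no group, they bound the signal and not the amount of transcript. In 231BrM the upper end of the 95% interval was under 0.5 log2 units for 26 of 29 receptors, and the highest was 0.68, for ROR1. In SKBrM3 it was also under 0.5 for 26 of 29, and the highest was 0.57, for KDR. The measured differences ran from -0.15 to 0.41 in 231BrM and from -0.28 to 0.39 in SKBrM3. On the probe set used for MET, the falls went beyond 3 log2 units. These intervals use a spread shared by all groups, and the doxycycline arrays of 231BrM lay further apart than the others. Over 62 probe sets of the tested receptors, the SD of the difference between replicates was 0.377 in that group and 0.123 to 0.142 in the other groups.

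KDR had log2 values of 4.75 and 4.69 in SKBrM3 with doxycycline, against 4.36 and 4.29 without it. Both doxycycline arrays were above both controls, and the difference was 0.39 (standard error 0.076, limma adjusted p = 0.0293), a fold of 1.31. All 4 values were under the background level of SKBrM3, and the other KDR probe set, with values of 3.93 to 4.10 over all arrays, gave -0.06. In 231BrM the values of the probe set used were 5.16 and 5.20 with doxycycline, against 5.25 and 5.19 without it, a difference of -0.04. The difference between the 2 effects, -0.44, did not pass (limma adjusted p = 0.263). The call in SKBrM3 was lost without any 1 of the 4 SKBrM3 arrays (log2 difference 0.36 to 0.43), without either 231BrM control array (limma adjusted p = 0.071 without replicate 1 and 0.0707 without replicate 2), with the mean of its probe sets (0.17, limma adjusted p = 0.167) and with each array centred on its median (0.34, limma adjusted p = 0.0567). It was kept without either 231BrM doxycycline array. Those fits change the shared spread and not the KDR values of SKBrM3, so the log2 difference stayed at 0.39.

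ROR1 had 7.10 and 6.82 in 231BrM with doxycycline, against 6.63 and 6.47 without it. In SKBrM3 it had 6.05 and 5.90 with doxycycline, against 5.82 and 5.65 without it. The doxycycline arrays were above the controls in both lines, by 0.41 in 231BrM (standard error 0.117, limma adjusted p = 0.366) and 0.24 in SKBrM3 (standard error 0.117, limma adjusted p = 0.303). Neither passed, nor did the average of 0.32 (limma adjusted p = 0.0821). The other ROR1 probe set gave 0.12 in 231BrM and -0.01 in SKBrM3. Without replicate 1 of 231BrM with doxycycline the difference in that line was 0.27 (limma adjusted p = 0.441), and without replicate 2, which leaves only the array that stands apart, it was 0.55 (limma adjusted p = 0.02). With replicate 2 left out EPHA4 and EPHB4 were called higher as well, and they were not called in the fit to all arrays.

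AXL in SKBrM3 had 11.56 and 11.60 with doxycycline, against 11.38 and 11.29 without it, and its log2 difference of 0.24 did not pass (limma adjusted p = 0.197). In 231BrM its arrays overlapped, with a difference of 0.04 and a 95% interval of -0.18 to 0.25. The other AXL probe set gave -0.04 in 231BrM and 0.01 in SKBrM3. IGF1R had the lowest difference in 231BrM, -0.15 (limma adjusted p = 0.634), and -0.14 in SKBrM3 (limma adjusted p = 0.504), where the mean over its probe sets gave 0.05. In SKBrM3 EPHB4 had the lowest difference, with 6.65 and 6.35 under doxycycline against 6.78 and 6.79 without it (-0.28, limma adjusted p = 0.41), while its other probe set above the filter gave 0.25. FGFR1 had -0.04 in 231BrM and 0.13 in SKBrM3, and EPHA2 had -0.03 and 0.02.

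The other receptors with the smallest p in each direction were FGFR4 (0.16) and PDGFRA (0.17) on the higher side in 231BrM and RYK (-0.10) and TIE1 (-0.10) on the lower side. In SKBrM3 PDGFRA had -0.13, and for the average CSF1R had -0.07. None of these passed, with limma adjusted p-values of 0.513 to 0.699. Counting only order, the doxycycline arrays were both above both controls for 7 of 29 receptors in 231BrM (24.1%, against 25.8% of all genes) and for 8 in SKBrM3 (27.6%, against 32.3%). They were both below for 3 in 231BrM (10.3%, against 12.1%) and for 4 in SKBrM3 (13.8%, against 27.2%). The shares on the higher side were near those of all genes.

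**Figure D3:**
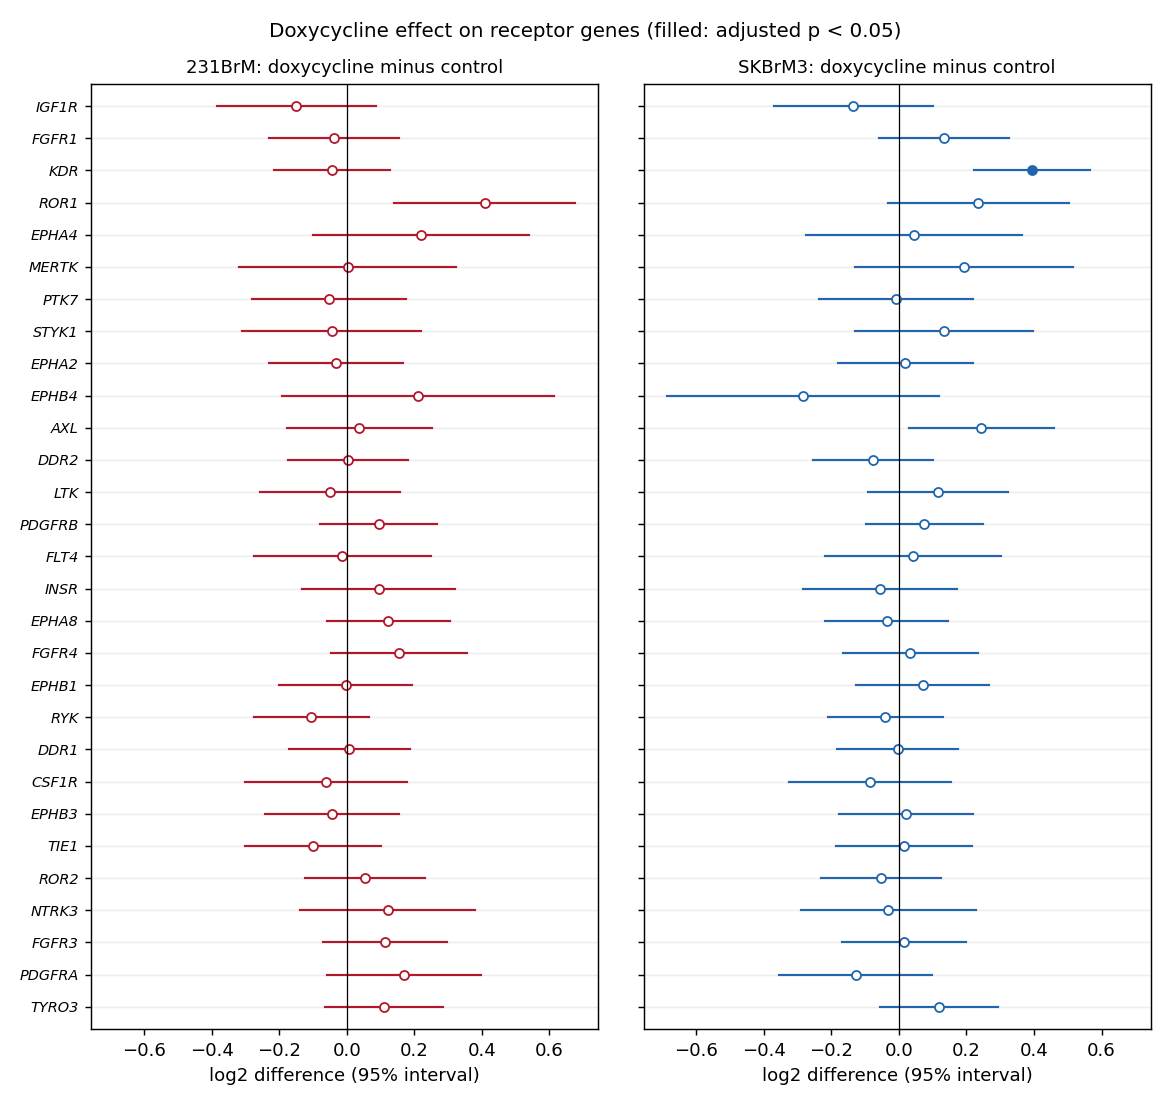
Log2 difference of doxycycline minus control (x axis) for the 29 tested receptor genes in 231BrM (left) and SKBrM3 (right), with 95% intervals from limma; the filled point has an adjusted p under 0.05. KDR in SKBrM3, at 0.39, is the 1 filled point, and all points lie between -0.28 and 0.41.

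**Figure D4:**
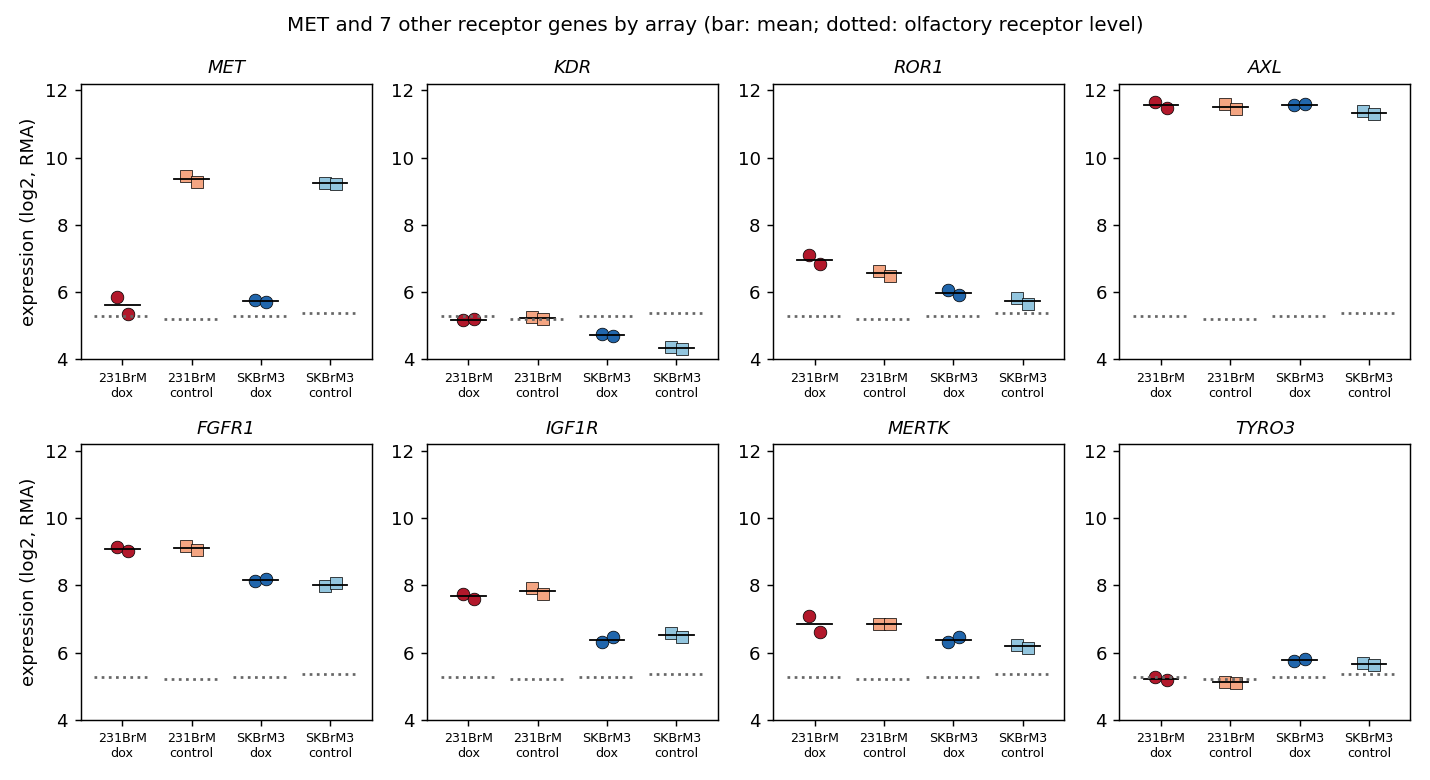
Log2 expression (y axis) of MET and 7 other receptor genes on each array by group (x axis); points are arrays, bars are group means and dotted lines are the olfactory receptor level of each group. MET is lower with doxycycline by more than 3 log2 units in both lines, and of the other 7 genes KDR in SKBrM3, at 0.39, is the 1 that passed the test.

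Replicate 1 of 231BrM with doxycycline gave probe-set-dependent values for several receptors. On it 4 of the 62 probe sets that pass the filter were lower by more than 0.5 log2 units than on replicate 2, none of them the one used: FGFR1 (-1.54), PTK7 (-1.29), IGF1R (-0.83) and EPHA2 (-0.82). The probe sets used for those genes differed by 0.10, -0.02, 0.17 and 0.18 between the same arrays. A further 3 were higher on it by as much, among them the probe set used for EPHB4 (0.55) and the other one of ROR1 (0.78). In the other groups 1 probe set was lower on replicate 1 by that much. The part of that array's larger difference between 3' and 5' control signal in these values was not tested.

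Of the receptors left out of the list, none besides MET was called with doxycycline in the unweighted fit to all arrays. EGFR had 8.04 and 9.99 in 231BrM with doxycycline, against 9.62 and 9.70 without it, so the doxycycline arrays lay on both sides of the controls, and its differences were -0.65 in 231BrM and -0.23 in SKBrM3. Without replicate 1 the difference in 231BrM was 0.33, and without replicate 2 it was -1.62 (limma adjusted p = 0.00065). ERBB2 differed by 0.01 in 231BrM and 0.30 in SKBrM3 (limma adjusted p = 0.124), and MST1R by -0.01 and -0.23. The ERBB2 difference in SKBrM3 was called in the fit with array weights (0.30, limma adjusted p = 0.0411). It was also called when either 231BrM doxycycline array was left out. ERBB3 did not pass the filter.

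Among ligands of these receptors, PGF, BDNF, GAS6 and FGF5 were higher in untreated 231BrM than in untreated SKBrM3. Of 59 ligands listed, 54 were measured and 34 tested, and 12 were higher and 6 lower in untreated 231BrM, that is 52.9% against 39.7% of all genes. Their median difference was 0.02. PGF, a ligand of FLT1, had 7.84 and 7.42 in untreated 231BrM, against 5.49 and 5.38 in untreated SKBrM3, a 4.58-fold difference (limma adjusted p = 6.12e-06). BDNF, the ligand of NTRK2, was 3.11-fold higher and GAS6, the ligand of the TAM receptors, 3.05-fold higher in 231BrM (limma adjusted p = 1.66e-05 for BDNF and 3.42e-06 for GAS6). FLT1 and NTRK2 themselves did not pass the filter in these cells, and of the TAM receptors MERTK was higher and TYRO3 lower beside GAS6. FGF5, a ligand of FGF receptors, was 2.49-fold higher, AGRN, the ligand of the LRP4-MUSK complex, 1.97-fold and EFNB2, the ligand of EPHB4, 1.75-fold. The other probe set of AGRN gave a log2 difference of -0.26, and those of BDNF, FGF5, GAS6 and EFNB2 were all positive. With doxycycline 0 of 34 ligands passed by limma in either line, and at an unadjusted p under 0.05 there were 1 higher and 4 lower in 231BrM and 7 higher and 3 lower in SKBrM3. Over all 13002 genes these numbers were 800 and 486 in 231BrM and 1355 and 1276 in SKBrM3.

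With doxycycline, SDC4 among co-receptors and ERRFI1 among adaptors and inhibitors fell in SKBrM3. SDC4, a heparan sulfate proteoglycan that presents fibroblast growth factors to their receptors, had 9.25 and 9.30 in SKBrM3 with doxycycline, against 10.16 and 10.30 without it. It was 1.94-fold lower (log2 difference -0.96, limma adjusted p = 0.00169), and its other probe sets gave -0.91 and -1.08. With the mean of the 3 probe sets the difference was -0.98 and did not pass (limma adjusted p = 0.0863). In 231BrM it had 9.78 and 9.99 with doxycycline, against 10.51 and 10.54 without it, a difference of -0.63 that did not pass (limma adjusted p = 0.0588) but did without doxycycline replicate 1 (-0.53, limma adjusted p = 0.0435) or 2 (-0.74, limma adjusted p = 0.00305). ERRFI1, a feedback inhibitor that binds the EGF receptor kinase domain, had 9.42 and 9.55 in SKBrM3 with doxycycline, against 10.06 and 10.26 without it, and was 1.60-fold lower (limma adjusted p = 0.009). In 231BrM its difference was -0.33 (limma adjusted p = 0.374). Without SKBrM3 doxycycline replicate 1 or control replicate 2 the ERRFI1 call was lost (-0.61 and -0.58). These were 1 of 12 co-receptors and 1 of 28 adaptors and inhibitors, against 3.43% of all genes, and in 231BrM 0 of either list passed by limma, against 0.162% of all genes, with 1 and 2 lower at an unadjusted p under 0.05, as were 486 of all 13002 genes. On average over both lines SDC4 (-0.79, limma adjusted p = 0.000634) and ERRFI1 (-0.50, limma adjusted p = 0.00697) fell, the second not without 231BrM control replicate 1 (-0.48, limma adjusted p = 0.0536).

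Between the untreated lines, 3 of 12 co-receptors were higher and 3 lower in 231BrM. NRP1, a co-receptor of VEGF and semaphorins, SDC1 and SDC4 were higher, by 0.64, 0.44 and 0.29 log2 units, and LRP4, GPC1 and GFRA2 had differences of -0.87, -0.35 and -0.26. With the mean of probe sets NRP1 had 0.07 (limma adjusted p = 0.585). The SDC4 and GFRA2 calls were lost without any 1 of the controls or SKBrM3 doxycycline arrays, and GPC1 without 3 of the 4 controls (limma adjusted p = 0.0618 to 0.145). Of 28 adaptors and inhibitors, 6 were higher and 1, SPRY4, lower (-0.79), that is 25% against 39.7% of all genes. The SPRY4 call was lost without 231BrM control replicate 2 (-0.58) or either SKBrM3 control (-0.82 and -0.76). LRIG1, an inhibitor of ERBB receptors and MET, was 2.58-fold higher in 231BrM, SHC1, a docking adaptor, 2.11-fold and CBL, a ubiquitin ligase that sends receptors to degradation, 1.86-fold. The other LRIG1 probe set gave 0.36, those of SHC1 0.85 to 1.32, and those of CBL 0.15 to 0.84. PTPRF, a receptor phosphatase, IRS1, the adaptor of insulin and IGF1 receptors, and LRIG2 were higher by 0.60, 0.59 and 0.47 log2 units, with limma adjusted p-values of 0.00177 to 0.00319.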

How the data were processed

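Total RNA from cultured cells was hybridised to 8 single-colour Affymetrix arrays. The deposited values are log2 expression per probe set, for which the submitters' processing notes name RMA, a method that corrects background, applies quantile normalization and summarises probes. No version, chip definition or build was found in the labels. Quantile normalization hides any change of total RNA. The table holds 49386 probe sets, of which 45259 name 1 gene; 45178 of these took their current symbol from RefSeq (GRCh38.p14) by gene ID. Genes that exceeded 4.41, the 40th percentile of the table, on 2 or more arrays were tested.

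Group means over all 8 arrays were fitted with limma 3.58.1 in R 4.3.3 (4 residual and 4.59 prior degrees of freedom); tests were two-sided, with Benjamini-Hochberg adjustment over 13002 genes and a threshold of 0.05. The steps were tested on simulated data. The labels do not say that replicates are separate cultures, so a p-value here reflects only how these arrays vary, which may be technical, and the number of arrays limits precision. No arrays held identical values.

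The members, the lists of ligands, co-receptors, adaptors and markers and the tests were chosen with earlier results of these data known. Named receptors are those called in any comparison, the 3 with the smallest p per direction in each doxycycline comparison, those above background in 1 line only, and families by count; from the other lists, up to 6 called genes per comparison. DDR1, DDR2, INSR, EPHB3, FLT4, SPRY4 and others outside this rule complete families or counts and were named after their values were seen. The alternatives were other probe set summaries, filters, weights, centring, trend, arrays of 1 line, a replicate block, left-out arrays and other background levels.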

Additional observations from a re-analysis of the deposited data

How the results depend on the processing

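Receptor counts kept within 1.5 times of the values given, under the alternatives run, with the following exceptions. In SKBrM3 with doxycycline the count of 1 (KDR) was 0 with the mean of all probe sets, with the filter at the 60th percentile, where KDR is not tested, and with each array centred on its median; leaving out arrays gave 0 to 1. In 231BrM with doxycycline leaving out arrays gave 0 to 3, and for the average 0 to 3, with the highest counts without doxycycline replicate 2. The fit with a replicate block gave 1 for the average (ROR1, 0.32, limma adjusted p = 0.0299), against 0 without it. Same-numbered replicates did not deviate together (correlations of -0.11 to 0.24 over 6 pairs of groups), so the numbers do not pair the samples. The block ended no receptor call elsewhere, and between the untreated lines it added EPHB4, higher in 231BrM. Array weights also added EPHB4 there, and an intensity trend added AXL, higher in 231BrM too. Between the untreated lines the filter at the 60th percentile, which tests 14 receptors, gave 7 in place of 11, and leaving out arrays gave 10 to 12. The difference of effects stayed at 0 in all of them.

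Receptors above background, 17 in 231BrM with doxycycline, 17 without it, 17 in SKBrM3 with doxycycline and 16 without it, became 11, 10, 9 and 8 at the 99th percentile of the olfactory receptor genes and 28, 29, 27 and 26 at the 75th. Leaving out an array of the group gave 16 to 16, 16 to 17, 17 to 17 and 15 to 16. Of the gene values given in the text, these turned sign, none of them called in the fit to all arrays and EGFR called without 231BrM doxycycline replicate 2. With the mean of all probe sets they were IGF1R (0.0481) and EPHA2 (-0.00326) in SKBrM3 and TIE1 (0.00178) and AXL (-0.00303) in 231BrM, and with centring EPHA2 in SKBrM3 (-0.0305) and ERBB2 in 231BrM (-0.0139). With an array left out, the values in 231BrM were -0.0476 to 0.122 for AXL, -1.62 to 0.326 for EGFR, -0.0503 to 0.0778 for ERBB2, -0.0998 to 0.0232 for FGFR1, -0.122 to 0.0599 for EPHA2 and -0.0528 to 0.0329 for MST1R; in SKBrM3 they were -0.00861 to 0.0466 for EPHA2, and between the lines -0.0369 to 0.0292 for RYK. Over all genes, calls in 231BrM with doxycycline, 21 as given, were 11 with array weights, 35 with an intensity trend, 43 with centring, 1 with that line alone and 2 to 1654 with an array left out. Those in SKBrM3, 446 as given, were 1604 with array weights, 1248 with that line alone and 52 to 1644. Those of the average, 395 as given, were 614 with centring and 97 to 2884; those of the difference, 3 as given, were 6 with centring, 6 with a trend and 0 to 488; and those between the lines, 5167 as given, were 3317 to 6570.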
